A study of Mus musculus with 90 samples.

Results

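The genes described here act when myoblasts adhere to each other and fuse. They are Mymk, Cav3, Cdh15, Cdh2, Ncam1, Vcam1, Itga7, Adam12 and Dysf. They were taken as every probe set that the chip annotation assigned to 1 of these symbols alone. All 9 genes had such a probe set, 20 probe sets in all out of 36701 on the 3 chip designs without controls. Only probe sets with 3 or more of 30 arrays over the median of their chip entered the test. This left 15 of the 20, for 8 of the 9 genes, among 24307 probe sets tested for 12373 named genes. The single Adam12 probe set did not pass that filter. For each gene 1 leading probe set was chosen, without a suffix for shared or incomplete probe design where there was one.

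All samples were primary skeletal myoblasts of MyoD-/- mice, which lack the myogenic transcription factor MyoD, so every group carried the same genotype and no wild-type group was compared. The 30 RNA samples came from 3 cultures named 1999, P6 and P10, each sampled at 0h in growth medium (Ham's F10 to which fetal bovine serum and bFGF, a growth factor, were added) and at 9 later times between 6h and 7d after a change to DMEM with a little horse serum. Each RNA was read on 3 Affymetrix chips, MG_U74Av2, MG_U74Bv2 and MG_U74Cv2, which gave 90 arrays. The labels give the same RNA concentration for 6h and 12h in each culture, and whether that is an error of the record is not known; no arrays of these times held identical values. The labels state neither what the culture names stand for nor the age of the animals, and p-values therefore measure only the spread between these samples.

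Skeletal muscle fibres form when mononucleated myoblasts leave the cell cycle, recognise and adhere to one another through cadherins and immunoglobulin-type receptors, and merge their membranes. Myomaker, the Mymk product, is a muscle-specific membrane protein required for the merger, together with the small protein myomixer. Integrins tie the new fibre to laminin, while caveolin-3 and dysferlin build and repair its surface membrane.

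Before the log2 a chip-specific value was added to each signal (119.8 on Av2, 270.1 on Bv2 and 213 on Cv2, the 25th percentile), and folds are on that scale. Errors of log2 fold changes are standard errors from limma, a linear model fitted across all probe sets, with time and culture as a block. An adjusted p under 0.05 (Benjamini-Hochberg over the 24307 probe sets) counted as passing.

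The targeted gene Myod1 still gave a signal of 3733 ± 693 (SD, n = 3) at 0h, and its log2 fold changes lay between −0.20 and 0.35. Whether the probe set reads the deleted part was not analysed here, and the genotype is therefore taken from the labels. Of the 5 myoblast markers on the chips, all were above the filter. Their summed signal lay between 7377 and 8111 at 0h and between 16863 and 38654 at 7d, when 3 of them passed as higher (Chrna1, Des and Musk). Chrna1 gave most of that rise, with a mean signal of 1131 at 0h and 17361 at 7d. Myf5 (2271 and 2325) and Myod1 (3733 and 3977) did not pass at 7d. The sum over 8 markers of differentiated muscle lay between 3918 and 10493 at 0h and between 83326 and 259301 at 7d, when 7 of them passed as higher. Ckm did not pass. From 0h to 7d its signal went from 1354 to 429 in 1999, from 822 to 910 in P6 and from 888 to 1053 in P10. Acta1 made up most of the sum at 7d, with 56165 in 1999, 116527 in P6 and 146357 in P10. Culture 1999 stood apart, with a sum of 6568 at 3d and 9991 at 4d against 180918 to 279880 in P6 and P10 at these times. Without these 1999 arrays of 3d and 4d, all 40 calls on member genes described below were kept and 6 were added, of Itga7 at 6h, Mymk at 12h, Dysf at 18h and 24h and Cav3 at 24h and 36h. In bulk RNA of this kind, fewer cells of a type and less RNA per cell cannot be told apart.

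Of the member genes, 6 were higher in differentiating cells than at 0h by the last day, and 0 were called lower. At 7d Mymk had risen 43.7-fold, Cav3 22.1-fold, Cdh15 4.54-fold, Itga7 3.30-fold, Dysf 3.07-fold and Cdh2 2.13-fold. Ncam1 and Vcam1 did not pass at any time in this model. By their leading probe sets, Cdh15 passed from 6h, Cdh2 and Itga7 from 12h, Mymk from 18h, and Cav3 and Dysf from 48h. These first times come from a threshold and were not compared between genes. They moved with the model: with scan session as the block Itga7 passed at 6h, Mymk at 12h and Dysf at 18h. Without a block Cdh2 passed at 12h and Cdh15 at 18h. With session as the block the Dysf calls at 3d, 4d and 7d and the Cav3 calls at 3d and 4d were lost. Leaving out 1999 took the Cav3 value at 7d from 4.47 to 5.21 on the log2 scale, and session as the block took it to 3.29.

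Counted over the 8 genes, 1 was called at 6h, where 1.1% of all probe sets were called and 0.646% were called higher. At 12h 3 were called, against 3.49% of all probe sets, 1.74% higher. The count was 4 at 18h (background 8.73%, higher 4.31%), 4 at 24h (8.3%, higher 4.44%) and 4 at 36h (7.87%, higher 4.29%). It was 6 at 48h (11.1%, higher 5.56%), 6 at 3d (9.97%, higher 5.23%), 6 at 4d (11%, higher 5.84%) and 6 at 7d (14.9%, higher 7.64%). Called lower were 0.457% of all probe sets at 6h, 1.75% at 12h, 4.43% at 18h, 3.86% at 24h, 3.59% at 36h, 5.5% at 48h, 4.74% at 3d, 5.2% at 4d and 7.31% at 7d. Every called member gene was higher, 0 were lower in limma at any of the 9 times, and 0 were lower at an unadjusted p under 0.05. The median log2 fold change over the 8 genes went from 0.69 at 6h to 1.67 at 7d, while the median over all tested probe sets was 0.00 and −0.05 at these times.

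With time alone in the model and no culture block, 0 genes passed at 6h, 1 at 12h, 2 at each time from 18h to 3d, 3 at 4d and 6 at 7d. The background in that model was 0.169% at 6h, 1.23% at 12h, 4.57% at 18h, 4.22% at 24h, 4.1% at 36h, 5.83% at 48h, 4.76% at 3d, 5.58% at 4d and 8.61% at 7d. At 7d the same 6 genes passed with and without the block. For calls that the block decided, the p without it is given below. At 7d the signals of 6 of the 8 genes lay wholly above those of 0h, as did those of 13% of all probe sets, and at 6h 4 did, against 7.42%. Over the other times that background was 7.98% at 12h, 10.6% at 18h and 24h, 10.9% at 36h, 10.8% at 48h, 9.91% at 3d and 10.4% at 4d.

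**Figure D1:**
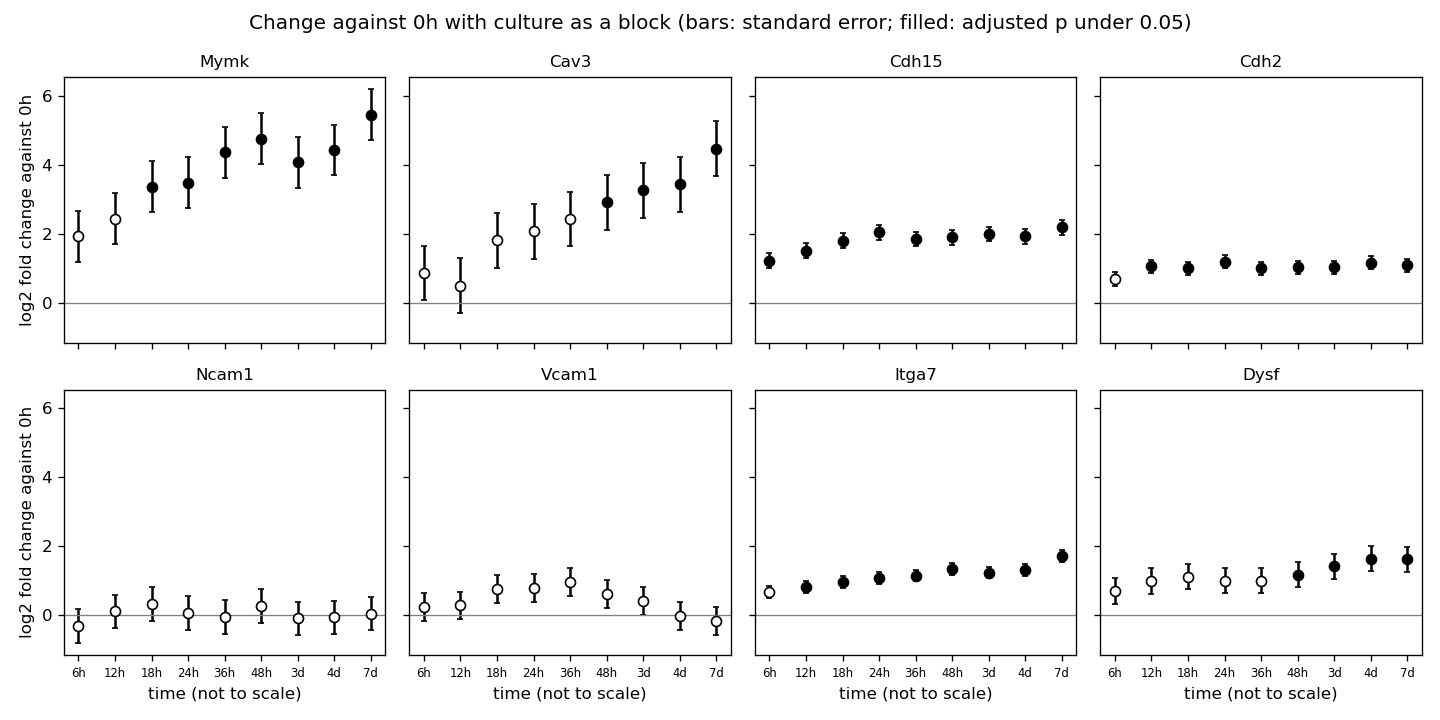
Log2 fold change against 0h of the leading probe set of 8 genes at 9 times (x axis, not to scale), with standard error bars and filled points where the adjusted p was under 0.05. Mymk and Cav3 reached the highest values, 5.45 and 4.47 at 7d, and Ncam1 and Vcam1 have open points throughout.

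Among the leading probe sets of the 8 genes, that of Mymk had the highest log2 fold change at 7d. In P10 its signal was 4493 at 0h, 54198 at 6h, 81427 at 12h, 130393 at 18h, 142452 at 24h, 141344 at 36h, 149595 at 48h, 149232 at 3d, 158063 at 4d and 129708 at 7d. In P6 it was 1712 at 0h, 4512 at 6h, 5225 at 12h, 25035 at 18h, 29576 at 24h, 30864 at 36h, 49263 at 48h, 86748 at 3d, 94463 at 4d and 108880 at 7d. In 1999 it was 869 at 0h, 2015 at 6h, 3532 at 12h, 3280 at 18h, 3264 at 24h, 20729 at 36h, 28139 at 48h, 3629 at 3d, 6843 at 4d and 62780 at 7d. P10 was the highest culture at all 10 times and 1999 the lowest, and the P10 signal at 6h was already above every 1999 signal before 7d.

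The mean Mymk signal was 2358 ± 1896 at 0h and 100456 ± 34250 at 7d (SD, n = 3), and the 3 samples of 7d lay above the 3 of 0h. The log2 fold change was 3.36 ± 0.74 at 18h (limma adjusted p = 0.00406), 4.75 ± 0.74 at 48h (adjusted p = 0.00011) and 5.45 ± 0.74 at 7d (adjusted p = 1.41e-05). Without the culture block the adjusted p was 0.287 at 18h, 0.275 at 24h, 0.138 at 36h, 0.0745 at 48h, 0.154 at 3d, 0.104 at 4d and 0.0276 at 7d. The calls at 18h and 24h were lost without P6 or without P10, and the 18h value was 4.23 without 1999 and 2.66 without P10. With scan session as the block the value was 3.54 at 4d and 4.83 at 7d, and it passed at both. At 12h the value was 2.44 ± 0.74 and did not pass (adjusted p = 0.0712). Within the 1999 culture the signal at 3d was below those of 36h and 48h, but no step between neighbouring times passed for Mymk.

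The 1999 dip was shared by the markers of differentiated muscle, whose sum in that culture was 5464 at 24h, 44410 at 36h, 32491 at 48h, 6568 at 3d and 83326 at 7d. The myogenic factor Myog gave 2767 at 48h, 1561 at 4d and 11798 at 7d in 1999, against 23084 at 7d in P10. Their part in the Mymk values was not tested.

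Mymx encodes myomixer, and its probe set on Cv2 carries a mark for incomplete probe design. Its signals at 0h were 196 in 1999, 786 in P6 and 1086 in P10, and at 7d they were 8103, 4011 and 4143 in that order. All 3 cultures were higher at 7d, with a log2 fold change of 2.72 ± 0.62 (limma adjusted p = 0.00324). Without 1999 the value was 1.91 and did not pass (adjusted p = 0.128), and the 0h signal of 1999 lay below the value added before the log. In contrast to Mymk, the 1999 culture had the highest Mymx signal at 7d.

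Adam12 encodes a membrane-anchored disintegrin and metalloprotease that is found in fusing myoblasts. Its probe set exceeded the chip median of 527.3 on 1 of 30 arrays. The signals were 284 in 1999, 492 in P6 and 582 in P10 at 0h, 130, 125 and 208 at 6h, and 149, 272 and 348 at 7d. All 3 samples of 6h lay below all 3 of 0h. The share of all probe sets that did so was not recorded, and 7.42% of those tested lay wholly above at 6h. With no filter on low signals the log2 fold change at 6h was −1.04 ± 0.24 (limma adjusted p = 0.0498 over 36701 probe sets), and at the other 8 times it lay between −0.37 and −0.80 without passing. Its signals were low throughout, and 29 of 30 arrays lay above the value added before the log.

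**Figure D2:**
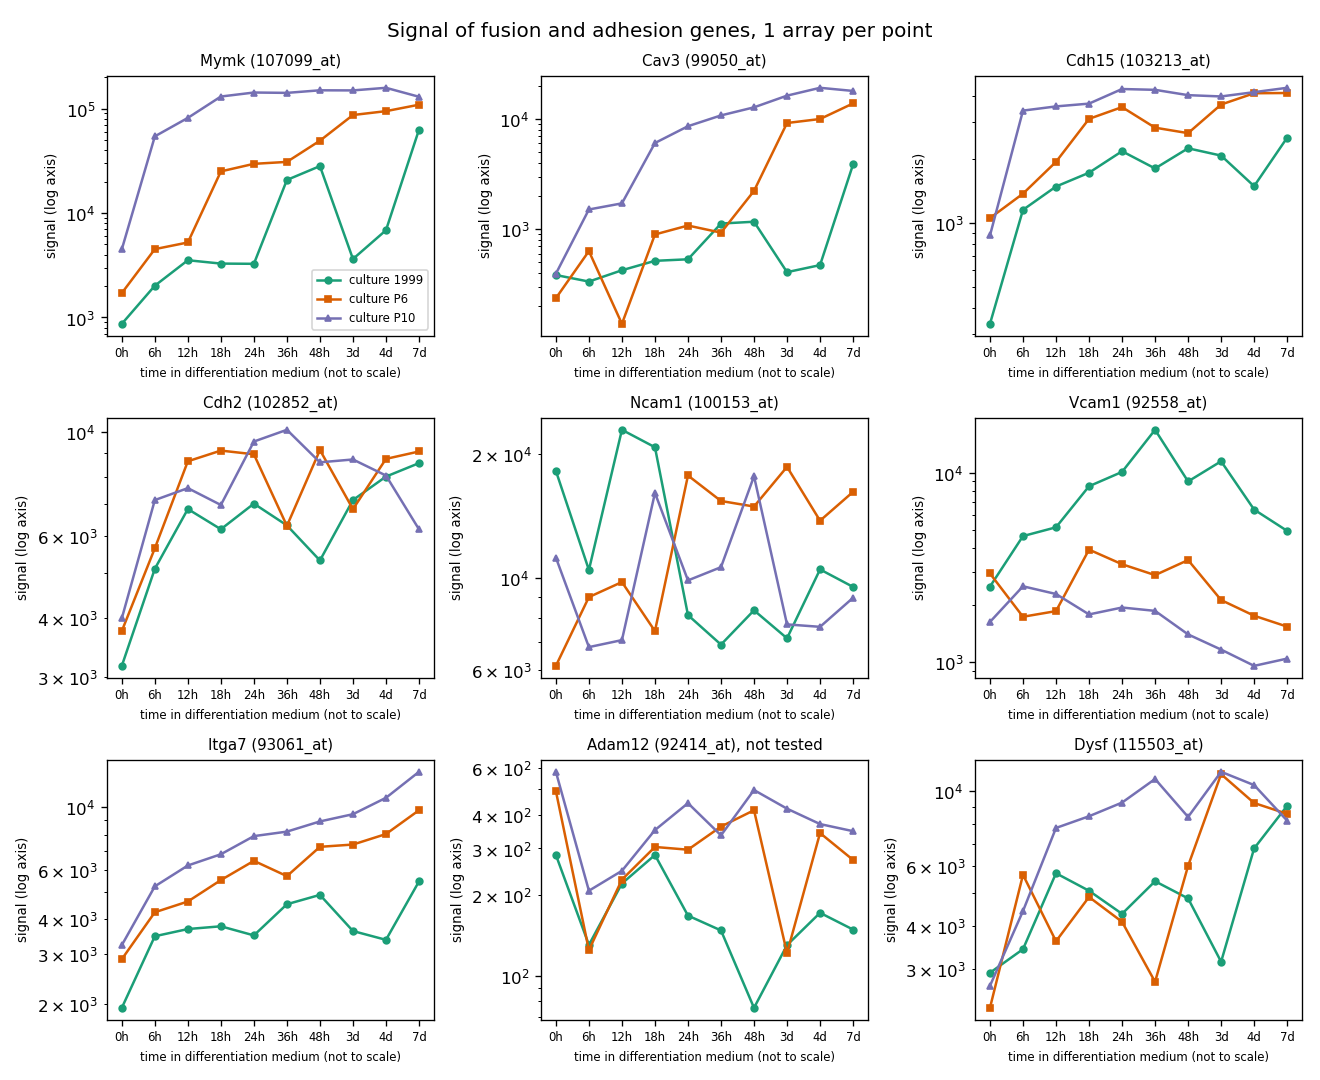
Signal on a log axis against time (not to scale) for the leading probe set of 8 genes and for the untested Adam12 probe set, with 1 line per culture and 1 array per point. The Mymk signal spans 869 to 158063, the 1999 line of Mymk and Cav3 falls back at 3d and 4d, and the 1999 line of Vcam1 lies above the other cultures from 6h on.

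Cdh15 and Cdh2, the cadherins by which myoblasts hold to each other, rose by 12h. Cdh15 encodes M-cadherin, the muscle cadherin. In 1999 its signal was 336 at 0h, 1158 at 6h, 1491 at 12h, 1732 at 18h, 2187 at 24h, 1814 at 36h, 2258 at 48h, 2086 at 3d, 1497 at 4d and 2534 at 7d. Culture P6 gave 1059 at 0h, 1380 at 6h, 1949 at 12h, 3107 at 18h, 3529 at 24h, 2823 at 36h, 2661 at 48h, 3629 at 3d, 4101 at 4d and 4112 at 7d. In P10 it was 877 at 0h, 3398 at 6h, 3556 at 12h, 3665 at 18h, 4294 at 24h, 4256 at 36h, 4018 at 48h, 3962 at 3d, 4151 at 4d and 4351 at 7d. The samples of 6h lay above those of 0h, and so did those of each later time.

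Cdh15 rose by 1.22 ± 0.21 on the log2 scale at 6h (limma adjusted p = 0.00592), by 2.04 ± 0.21 at 24h (adjusted p = 1.64e-06) and by 2.18 ± 0.21 at 7d (adjusted p = 3.49e-07). Without the block the adjusted p was 0.446 at 6h and 0.133 at 12h, and it was under the threshold from 18h on. The 6h and 12h calls were also lost when 1999 or P10 was left out, with adjusted p up to 0.387. A further Cdh15 probe set, marked for incomplete probe design, never exceeded the chip median (signals between 28.7 and 365) and was not tested.

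Cdh2 encodes N-cadherin, the neural cadherin that myoblasts also carry. Its signals were 3162 in 1999, 3752 in P6 and 3995 in P10 at 0h, which rose to 6837, 8646 and 7577 at 12h. They were 7021, 8948 and 9528 at 24h and 8568, 9072 and 6188 at 7d. All 3 samples lay above the 0h samples at each of the 9 later times. The cultures lay farther apart at 36h (6309, 6294 and 10094 in 1999, P6 and P10) and at 48h (5309, 9138 and 8602) than at 0h. The calls at 12h, 18h and 36h did not hold without every culture, being lost without 1999 or P6 at 12h, without P6 at 18h and without P10 at 36h. Over the whole course the lowest array, at 3162, was that of 1999 at 0h and the highest, at 10094, that of P10 at 36h.

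The log2 fold change of Cdh2 was 0.69 ± 0.19 at 6h (limma adjusted p = 0.0909) and 1.06 ± 0.19 at 12h (adjusted p = 0.00266). Afterwards it lay between 0.99 and 1.19, with an adjusted p of 0.000338 at 7d. Cdh2 passed at the same 8 times without the culture block, where the adjusted p was between 0.00166 and 0.016. It was the 1 member gene that passed the joint test over all times in both models (adjusted p = 0.00396 with the block and 0.0308 without). Leaving out any single culture ended that joint call, with adjusted p between 0.059 and 0.165.

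Promoter sequences of RefSeq on build GRCm38.p6 were read for 3 of the 9 genes, Cav3, Cdh15 and Dysf. The windows ran from 250 bases before to 50 after an annotated start. Entries on 1 chromosome were left out before that count, so other members may have a window that was not read. The windows of Cdh15 and Cav3 are shown, with the letters CANNTG, the E-box that myogenic basic helix-loop-helix factors recognise, in capitals. The windows of Dysf, which also rose, held fewer such matches and are not shown.
Cdh15 promoter, chr8:122848124-122848423, plus strand: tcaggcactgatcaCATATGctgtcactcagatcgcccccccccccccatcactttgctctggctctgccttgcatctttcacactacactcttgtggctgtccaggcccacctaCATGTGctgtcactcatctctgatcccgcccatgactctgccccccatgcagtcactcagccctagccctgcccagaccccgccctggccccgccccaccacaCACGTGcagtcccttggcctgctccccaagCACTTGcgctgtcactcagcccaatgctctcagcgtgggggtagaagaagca
Cav3 promoter, chr6:112459255-112459554, plus strand: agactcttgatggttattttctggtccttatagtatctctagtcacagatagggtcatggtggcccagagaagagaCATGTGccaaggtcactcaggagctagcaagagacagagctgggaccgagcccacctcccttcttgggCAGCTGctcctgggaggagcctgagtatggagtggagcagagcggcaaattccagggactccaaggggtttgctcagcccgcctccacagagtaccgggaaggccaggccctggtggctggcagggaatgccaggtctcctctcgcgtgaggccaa
The Cdh15 window held 4 matches of CANNTG, none of the form CAGCTG. The Cav3 window held 2, of which 1 was CAGCTG. Of the 2 Dysf windows, 1 held a single match and 1 held none. The motif reads the same on both strands, and CAGCTG is 1 of its forms. At least 1 CANNTG was present in 72.3% of the 32851 promoter windows of the table, and CAGCTG in 16.3%. The mean over these windows was 1.39 matches of CANNTG. These matches are a description of the letters and do not show that a factor was bound.

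Among the immunoglobulin-type receptors, Ncam1 and Vcam1 did not pass at any time with culture as the block. Ncam1 encodes the neural cell adhesion molecule, which also marks myoblasts. In 1999 its signal was 18166 at 0h, 10474 at 6h, 22822 at 12h, 20715 at 18h, 8150 at 24h, 6917 at 36h, 8370 at 48h, 7164 at 3d, 10505 at 4d and 9533 at 7d. For P6 it was 6147 at 0h, 9009 at 6h, 9793 at 12h, 7457 at 18h, 17704 at 24h, 15366 at 36h, 14899 at 48h, 18575 at 3d, 13773 at 4d and 16166 at 7d. In P10 it was 11218 at 0h, 6822 at 6h, 7093 at 12h, 16068 at 18h, 9884 at 24h, 10637 at 36h, 17637 at 48h, 7739 at 3d, 7636 at 4d and 8973 at 7d. From 24h on the 1999 signals lay below those of its own 0h, 12h and 18h arrays, whereas the P6 signals from 24h on lay above all earlier P6 signals.

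The mean Ncam1 signal was 11844 ± 6034 at 0h and 11557 ± 4001 at 7d (SD, n = 3). The 9 log2 fold changes ranged from −0.32 to 0.33, each with a standard error of 0.48, and the joint test over time gave an adjusted p of 0.992. The early to late difference of the mean log2 signal, 3d, 4d and 7d against 0h, 6h and 12h, was −0.86 in 1999, 0.97 in P6 and −0.01 in P10, and the test of that difference between cultures gave a limma adjusted p of 0.0508. A second Ncam1 probe set, of a kind that can also read related transcripts, had −1.02, 0.82 and 0.15 in that order (adjusted p = 0.0403). The remaining 2 Ncam1 probe sets never exceeded the chip median and were not tested.

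Vcam1 encodes a receptor that binds the integrin alpha4 beta1 and takes part in contacts between myoblasts and myotubes. In 1999 its signal was 2508 at 0h, 4633 at 6h, 5154 at 12h, 8488 at 18h, 10103 at 24h, 16850 at 36h, 8998 at 48h, 11495 at 3d, 6392 at 4d and 4936 at 7d. For P6 it was 2942 at 0h, 1739 at 6h, 1862 at 12h, 3931 at 18h, 3291 at 24h, 2884 at 36h, 3463 at 48h, 2130 at 3d, 1761 at 4d and 1542 at 7d. In P10 it was 1633 at 0h, 2518 at 6h, 2293 at 12h, 1789 at 18h, 1945 at 24h, 1868 at 36h, 1403 at 48h, 1167 at 3d, 958 at 4d and 1046 at 7d. The 1999 arrays were the highest at all times but 0h, and their high point at 36h had no counterpart in P6 or P10.

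At 36h the log2 difference of Vcam1 to the 0h array was 2.69 in 1999, −0.03 in P6 and 0.18 in P10, and the fitted change of 0.95 ± 0.40 did not pass (limma adjusted p = 0.183). With scan session as the block it was 1.34 ± 0.40 and passed (adjusted p = 0.044). At 7d it was −0.18 ± 0.40 (adjusted p = 0.848). The other Vcam1 probe sets had the same high point, 9143 and 12316 in 1999 at 36h against 891 to 1793 in P6 and P10, and did not pass either. Vcam1 differed in level between the cultures (adjusted p = 1.47e-06). Its early to late difference was 0.85 in 1999, −0.23 in P6 and −0.93 in P10, with an adjusted p of 0.0833 for the difference between cultures.

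The fibroblast markers were read beside these values. Of 9 such markers 6 were above the filter, and Thy1, Lum and Tcf21 were not. Their summed signal at 0h was 94865 in 1999, 13191 in P6 and 15385 in P10, and at 7d it was 102851, 43548 and 46903. Col1a2, a collagen chain, gave 53579 in 1999 at 0h against 102 and 52.3 in P6 and P10, while Col1a1 gave 37273 against 7336 and 9309, and these collagens make up most of the 1999 sum. Col3a1 was lowest in 1999, with 2910 at 0h against 5362 and 4745, and Dcn was lowest there at 7d, with 1558 against 2374 and 2931. Col3a1, Dcn and Postn passed as higher at 7d, with and without the block, by 1.92 ± 0.24, 3.10 ± 0.38 and 4.37 ± 0.60 on the log2 scale. Adipocyte, endothelial, macrophage, glia and smooth muscle lists had 1 of 4, 2 of 8, 2 of 6, 2 of 3 and 4 of 5 markers on the chips above the filter, and Pecam1, Cdh5, Adgre1 and Ptprc were below it. The smooth muscle actin gene Acta2 passed as higher at 7d (2.31 ± 0.39), and Eng and Cd14 as lower (−0.49 ± 0.16 and −0.78 ± 0.23). From the smooth muscle list, Tagln, Myh11 and Smtn did not pass at 7d. Their mean signals at 0h and 7d were 2575 and 3351, 2674 and 2358, and 451 and 776 in that order. Kdr and Csf1r, tested beside Eng and Cd14, did not pass at 7d either. The part of other cells in the Vcam1 values, or in those of the genes that rose, was not tested.

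Itga7 encodes the integrin chain alpha7, the laminin receptor of muscle fibres, and was higher than at 0h in every culture at every later time. In P10 its signal was 3236 at 0h, 5237 at 6h, 6212 at 12h, 6810 at 18h, 7901 at 24h, 8197 at 36h, 8910 at 48h, 9454 at 3d, 10813 at 4d and 13379 at 7d. Culture P6 gave 2884 at 0h, 4235 at 6h, 4625 at 12h, 5512 at 18h, 6452 at 24h, 5693 at 36h, 7238 at 48h, 7374 at 3d, 8036 at 4d and 9765 at 7d. In 1999 it was 1936 at 0h, 3480 at 6h, 3692 at 12h, 3775 at 18h, 3504 at 24h, 4523 at 36h, 4883 at 48h, 3631 at 3d, 3379 at 4d and 5451 at 7d. The order of the cultures was the same at all 10 times, with P10 highest and 1999 lowest, and the samples of each later time lay above those of 0h.

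The log2 fold change of Itga7 was 0.67 ± 0.17 at 6h (limma adjusted p = 0.0563), 0.82 ± 0.17 at 12h (adjusted p = 0.00767), 1.33 ± 0.17 at 48h (adjusted p = 1.4e-05) and 1.72 ± 0.17 at 7d (adjusted p = 4.02e-07). Without the block the adjusted p was 0.506 at 12h, 0.251 at 18h, 0.191 at 24h, 0.154 at 36h, 0.0621 at 48h, 0.101 at 3d, 0.0719 at 4d and 0.0101 at 7d, and the level of Itga7 differed between cultures (adjusted p = 3.01e-07). The call at 12h was lost without P6 or P10, and that at 18h without P10. A second Itga7 probe set, of a kind that can also read related transcripts, gave 1.72 ± 0.21 at 7d (adjusted p = 4.68e-06, and 0.0509 without the block). A further one had signals between 27.7 and 118 and was not tested.

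Cav3 and Dysf, which shape and reseal the surface membrane of the fibre, passed from 48h on by their leading probe sets. Cav3 encodes caveolin-3, the muscle form of the caveolar coat protein. In P10 its signal was 395 at 0h, 1511 at 6h, 1716 at 12h, 6050 at 18h, 8592 at 24h, 10765 at 36h, 12744 at 48h, 16270 at 3d, 19160 at 4d and 17947 at 7d. In P6 it was 237 at 0h, 633 at 6h, 139 at 12h, 897 at 18h, 1080 at 24h, 931 at 36h, 2225 at 48h, 9189 at 3d, 9988 at 4d and 13828 at 7d. In 1999 it was 384 at 0h, 335 at 6h, 425 at 12h, 517 at 18h, 534 at 24h, 1126 at 36h, 1170 at 48h, 408 at 3d, 473 at 4d and 3868 at 7d. The cultures began close together at 0h and spread apart, so that at 24h P10 was far above P6 and 1999, and at 3d and 4d P10 and P6 were far above 1999.

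The mean Cav3 signal was 339 ± 88.3 at 0h and 11881 ± 7239 at 7d (SD, n = 3). Its log2 fold change was 2.42 ± 0.79 at 36h (limma adjusted p = 0.064), 2.91 ± 0.79 at 48h (adjusted p = 0.0179) and 4.47 ± 0.79 at 7d (adjusted p = 0.000342). Without the block the adjusted p was 0.261 at 48h, 0.204 at 3d, 0.163 at 4d and 0.0403 at 7d. The calls of Cav3 at 48h, 3d and 4d were lost when P6 or P10 was left out (adjusted p up to 0.351), and the call at 7d held without any 1 culture. With scan session as the block the value was 1.69 ± 0.57 at 3d and 2.01 ± 0.67 at 4d, and neither passed (adjusted p = 0.0786 and 0.0877). Without 1999 the values at 48h, 3d and 4d were higher, 3.68, 4.85 and 5.03, and with an offset at the chip median that at 7d was 3.61. A second Cav3 probe set, of a kind shared by several transcripts, gave 5.49 ± 1.01 at 7d (adjusted p = 5e-04). It passed from 36h on, with 3.48 ± 1.01 at 36h (limma adjusted p = 0.0339, and 0.353 without the block). Its 0h mean of 108 lay below the value added, so that its fold is limited by background.

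Dysf encodes dysferlin, a membrane repair protein whose loss causes muscular dystrophy. In P10 its signal was 2669 at 0h, 4433 at 6h, 7789 at 12h, 8433 at 18h, 9253 at 24h, 10858 at 36h, 8394 at 48h, 11401 at 3d, 10420 at 4d and 8185 at 7d. In P6 it was 2298 at 0h, 5669 at 6h, 3612 at 12h, 4876 at 18h, 4121 at 24h, 2742 at 36h, 6022 at 48h, 11219 at 3d, 9225 at 4d and 8571 at 7d. In 1999 it was 2916 at 0h, 3422 at 6h, 5729 at 12h, 5086 at 18h, 4350 at 24h, 5426 at 36h, 4829 at 48h, 3142 at 3d, 6780 at 4d and 9052 at 7d. The 3 cultures met at 7d, within 8185 to 9052, and all 3 then lay above the highest 0h sample.

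The log2 fold change of Dysf was 1.18 ± 0.36 at 48h (limma adjusted p = 0.0367), 1.63 ± 0.36 at 4d (adjusted p = 0.00397) and 1.62 ± 0.36 at 7d (adjusted p = 0.00293). Without the block the adjusted p was 0.123 at 48h, 0.0613 at 3d and 0.0184 at 7d. The 48h call was lost when any 1 culture was left out, the 3d call without P6 or P10, and the 4d call without P10. With scan session as the block in place of culture the values at 3d, 4d and 7d were 1.11 ± 0.35, 1.11 ± 0.41 and 1.06 ± 0.48, and none of them passed (adjusted p = 0.0563, 0.127 and 0.198). Without 1999 the value at 3d was 2.08. The joint test over time did not pass for this probe set (adjusted p = 0.0771). It did for a second probe set made from the same sequence record (adjusted p = 0.00993, and 0.447 without the block).

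**Figure D3:**
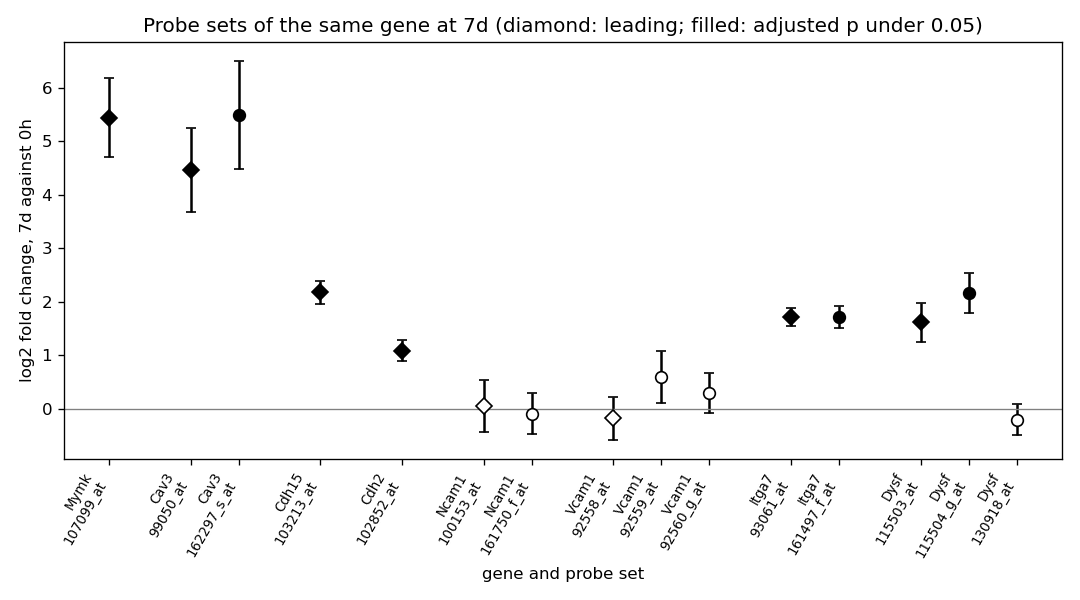
Log2 fold change at 7d against 0h, with standard error bars, for the 15 tested probe sets grouped by gene (diamonds for the leading one, filled where the adjusted p was under 0.05). Probe sets of Cav3 and of Itga7 stand together, and 1 of the 3 Dysf probe sets lies at −0.20 below the other 2 at 1.62 and 2.17.

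Of the 3 Dysf probe sets 2 passed and 1 did not at any time, and the difference between them was not tested. On Bv2 the second one gave 2.17 ± 0.37 at 7d (limma adjusted p = 0.000205) and passed from 18h on. Without the block its calls from 18h to 3d were lost. On Cv2 the third gave −0.20 ± 0.29 at 7d (adjusted p = 0.739), with signals of 2030, 1596 and 2563 at 0h and 1515, 1950 and 1759 at 7d in 1999, P6 and P10. Its log2 fold changes lay between −0.45 and 0.18 over the course. Which part of Dysf each probe set reads was not analysed here. Probe sets of the same gene on Ncam1, Vcam1, Itga7 and Cav3 fell on the same side of the threshold at 7d with the block.

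Timing within the course was asked by comparing each time with the one before it. For the 8 genes 0 such steps passed in limma from 6h to 7d, with or without the block, and 1 had an unadjusted p under 0.05, at 7d against 4d. Few probe sets passed in these steps at all, 0.128% at 18h against 12h (0.0782% without the block), 0.00411% at 24h against 18h and 0% at the other steps. The joint test passed for 5 of the 8 genes, Mymk, Cav3, Cdh15, Cdh2 and Itga7, against 8.31% of all probe sets. Without the block it passed for 1, against 3.27%.

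Level differences between cultures were found for 6 of the 8 genes, Mymk, Cav3, Cdh15, Vcam1, Itga7 and Dysf, against 24% of all probe sets. Times within a culture stand in as its samples in this test. The mean log2 signal of Mymk was 12.66 in 1999, 14.53 in P6 and 16.41 in P10 (limma adjusted p = 1.71e-06), and that of Vcam1 was 12.80, 11.32 and 10.74. Cdh15, Itga7, Cav3 and Dysf had the order of Mymk, with 1999 lowest and P10 highest, while Vcam1 had the reverse order. For Dysf the adjusted p was 0.0396, and it was 0.0518 with an offset of 16 and 0.0647 after quantile normalization.

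**Figure D4:**
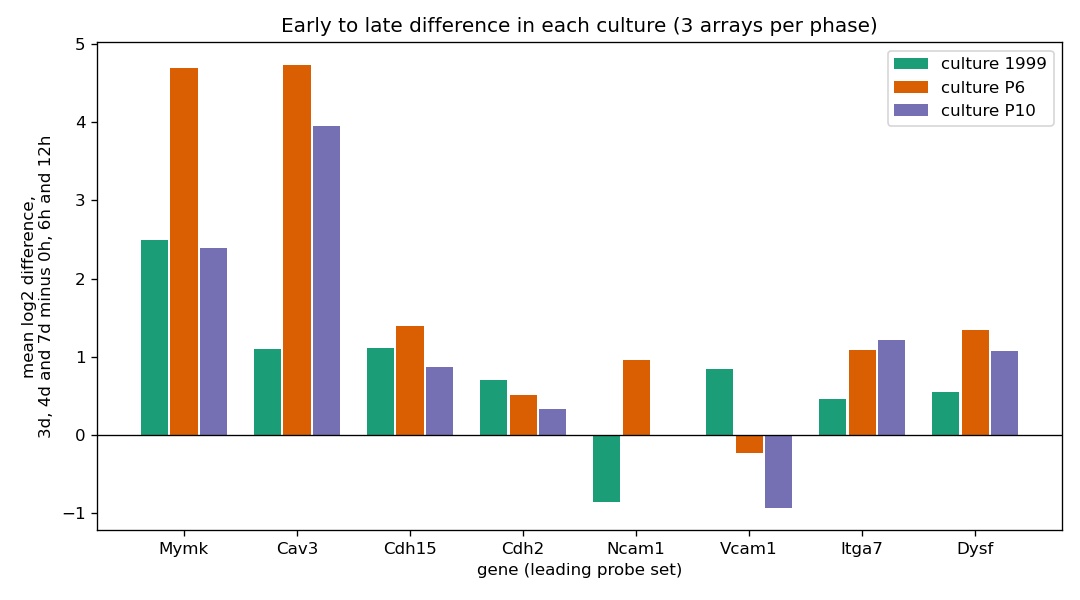
Mean log2 signal of 3d, 4d and 7d minus that of 0h, 6h and 12h, as bars for each culture and gene. Mymk, Cav3, Cdh15, Cdh2, Itga7 and Dysf are above 0 in all 3 cultures, and Ncam1 and Vcam1 have bars on both sides of 0.

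The early to late difference was above 0 in all 3 cultures for 6 genes. For Cav3 it was 1.11 in 1999, 4.74 in P6 and 3.95 in P10, for Mymk 2.49, 4.69 and 2.39, and for Cdh15 1.11, 1.40 and 0.87. The test of this difference between cultures passed for 0 of the 8 leading probe sets in limma, against 1.79% of all probe sets, and the smallest adjusted p were those of Ncam1 at 0.0508 and Cav3 at 0.0695. Times within a phase stand in as samples of a culture in these tests, which do not show that the cultures changed alike.

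Scan sessions, as the instrument records give them, were a further way in which the arrays differed. The arrays of each chip were scanned in 5 or 6 sessions, and at 7d no array shared a session with the 0h array of its own culture. At 48h the 0h and 48h arrays on Bv2 shared a session in all 3 cultures, and there the log2 difference of Mymk was 4.64 in 1999, 4.64 in P6 and 4.98 in P10, and that of Dysf 0.68, 1.29 and 1.56. On Av2 they did so in 1999 and P6, with differences of 2.38 and 1.24 for Cdh15, 0.73 and 1.26 for Cdh2, 1.28 and 1.29 for Itga7 and 1.35 and 2.72 for Cav3. The same 6 genes passed at 48h with session as the block.

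By likeness of the course, Mymk was closest to Tmem38a (Pearson r = 0.977 of log2 signal over 30 arrays of the same chip), Itgb1bp2 (0.977) and Smpx (0.967). Cav3 was closest to Myh7 (0.977), Csrp3 (0.975) and Myh8 (0.975), of which both myosin probe sets carry marks for shared or incomplete design. Itga7 was closest to Trp53inp2 (0.976), Atp2a1 (0.946) and Mylpf (0.944), and Cdh15 to Col3a1 (0.947), Trp53inp2 (0.931) and C1qtnf3 (0.929). Cdh2 was closest to Zfp36l1 (0.888), Vcam1 to Tmem176b (0.932), Dysf to Dclk1 (0.863) and Ncam1 to Usf2 (0.742). The arrays share cultures and times, so these values describe the courses in these 30 samples alone.

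Related genes were taken from 6 lists, each described at the time with most calls. Where times tied, the earlier was taken (48h before 7d for cadherins and catenins and for integrins). Among cadherins and catenins, 3 of 15 tested genes passed at 48h (median log2 fold change 0.18, against −0.02 over all probe sets), where 11.1% of all probe sets were called, and 1, Cdh13, did so without the block. Cdh13, a cadherin anchored in the membrane by lipid, rose from 57.0, 275 and 347 in 1999, P6 and P10 to 4100, 2562 and 3414, a log2 fold change of 3.42 ± 0.35 (limma adjusted p = 9.38e-07). Ctnna1, which links cadherins to actin, rose by 0.51 ± 0.14 (adjusted p = 0.0236), and Ctnnb1, the beta-catenin partner of cadherins, fell by 0.54 ± 0.16 on the log2 scale (adjusted p = 0.0256). Cdh13 rose in all 3 cultures, and its value was 4.07 with an offset of 16 and 2.37 with one at the chip median. Its 0h signal in 1999 lay below the value added, which limits the fold there. The calls of Ctnna1 and Ctnnb1 were lost when any 1 culture was left out.

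Of 22 integrin genes tested, 2 rose and 3 fell at 48h, where 5.56% of all probe sets were called higher and 5.5% lower. The median was 0.04, and 0 passed without the block. At 7d, 3 rose and 2 fell (against 7.64% and 7.31% of all probe sets), and 1 each way passed without the block. The values below are those of 48h. Itgb1bp2, a muscle protein that binds the integrin beta1 tail, rose by 3.66 ± 0.73 (limma adjusted p = 0.0015), and Itgb5 by 0.93 ± 0.20 (adjusted p = 0.0033). With an offset of 16 or at the chip median the Itgb1bp2 value was 4.32 or 2.95. Its 0h signals of 259 in 1999 and 266 in P6 lay below the value added, so its fold is limited by background. Itga6, another laminin-binding chain, had −1.06 ± 0.30 (adjusted p = 0.0216), Itgb7 had −0.86 ± 0.27 (adjusted p = 0.0426) and the adaptor Parva −0.74 ± 0.22 (adjusted p = 0.0291). The call of Itgb1bp2 was lost without P10 (adjusted p = 0.0751), that of Itgb5 without 1999 or P6, that of Itgb7 without P6 or P10, and those of Itga6 and Parva when any 1 culture was left out. Without the 1999 arrays of 36h and 48h these falls no longer passed, with adjusted p of 0.0719, 0.132 and 0.231 in that order.

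Of 16 immunoglobulin-type receptors tested, 2 rose and 4 fell at 3d, where 5.23% of all probe sets were called higher and 4.74% lower, with a median of 0.08, and 2, Igdcc4 and Nectin1, passed without the block. Igdcc4 rose by 2.30 ± 0.33 (limma adjusted p = 4.83e-05) and Jam3, a junctional adhesion molecule, by 1.67 ± 0.39 (adjusted p = 0.00744). Alcam fell by 1.71 ± 0.42 on the log2 scale (adjusted p = 0.00905), Neo1, the receptor neogenin, by 1.00 ± 0.24 (adjusted p = 0.00767), and Nectin1 by 0.85 ± 0.21 (adjusted p = 0.00939). With an offset of 16 or at the chip median the Igdcc4 value was 2.94 or 1.69, and its 0h signal of 171 in P6 lay below the value added. All 3 cultures shared the direction for each of these 5 genes. The call of Jam3 was lost without P6, those of Alcam, Neo1 and Nectin1 without P6 or P10, and those of Jam3, Alcam and Neo1 with scan session as the block.

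Of 23 genes of caveolae and membrane repair, 5 rose and 3 fell at 7d, where 7.64% of all probe sets were called higher and 7.31% lower, with a median of −0.02, and 4 passed without the block, among them Bin1, Anxa2 and Capn2. Cavin4, the muscle cavin that works with caveolin-3, rose by 2.66 ± 0.64 (limma adjusted p = 0.00492), Capn3, the muscle calpain, by 2.05 ± 0.52 (adjusted p = 0.0084) and Bin1, which curves the membrane of T-tubules, by 1.95 ± 0.25 (adjusted p = 7.96e-06). Anxa2 went from 85579, 71298 and 82062 at 0h in 1999, P6 and P10 to 33107, 34275 and 19564 at 7d, a log2 fold change of −1.49 ± 0.23 (adjusted p = 8.92e-05). Anxa5 had −1.09 ± 0.25 (adjusted p = 0.0034) and the calpain Capn2 −0.66 ± 0.17 (adjusted p = 0.00787). Anxa2 and Anxa5 encode annexins that gather at membrane wounds. Without the block the calls of Anxa5, Cavin4 and Capn3 were lost (limma adjusted p = 0.157, 0.152 and 0.193). Those of Anxa5, Capn3 and Capn2 were lost without P6 or P10, and that of Cavin4 without P6. Capn3 and Capn2 also lost theirs with scan session as the block. With session as the block Anxa2 had −2.19 and Capn3 1.23.

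Among 26 further fusion effectors, 4 rose and 3 fell at 7d, against the same shares of all probe sets, with a median of −0.13, and 5 passed without the block, namely Fst, Mymx, Ppp3ca, Cd44 and Dock5. Fst, which encodes the activin and myostatin antagonist follistatin, went from 766, 455 and 1363 in 1999, P6 and P10 to 9586, 19159 and 22996, a log2 fold change of 4.16 ± 0.64 (limma adjusted p = 8.05e-05). Mymx followed with the values given above, and Ppp3ca, a calcineurin subunit, rose by 1.05 ± 0.21 (adjusted p = 0.00132). Cd44, the hyaluronan receptor, fell by 2.05 ± 0.35 on the log2 scale (adjusted p = 0.000203), and the Rac exchange factors Dock5 and Dock1 fell by 0.89 ± 0.19 (adjusted p = 0.00169) and 0.55 ± 0.18 (adjusted p = 0.0406). With session as the block Fst had 2.83, and without P10 Cd44 had −1.42, both still past the threshold. The call of Ppp3ca was lost without 1999, that of Dock5 without P10 and that of Dock1 when any 1 culture was left out. Of 8 other ADAM proteases, only Adam10 passed at 7d, a share near the 14.9% of all probe sets called, with −0.63 ± 0.20 (adjusted p = 0.0349). It was not lower in 1999, and its call was lost without the block (0.202), with session as the block (0.578) and without P6 (0.161) or P10 (0.587).

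**Figure D5:**
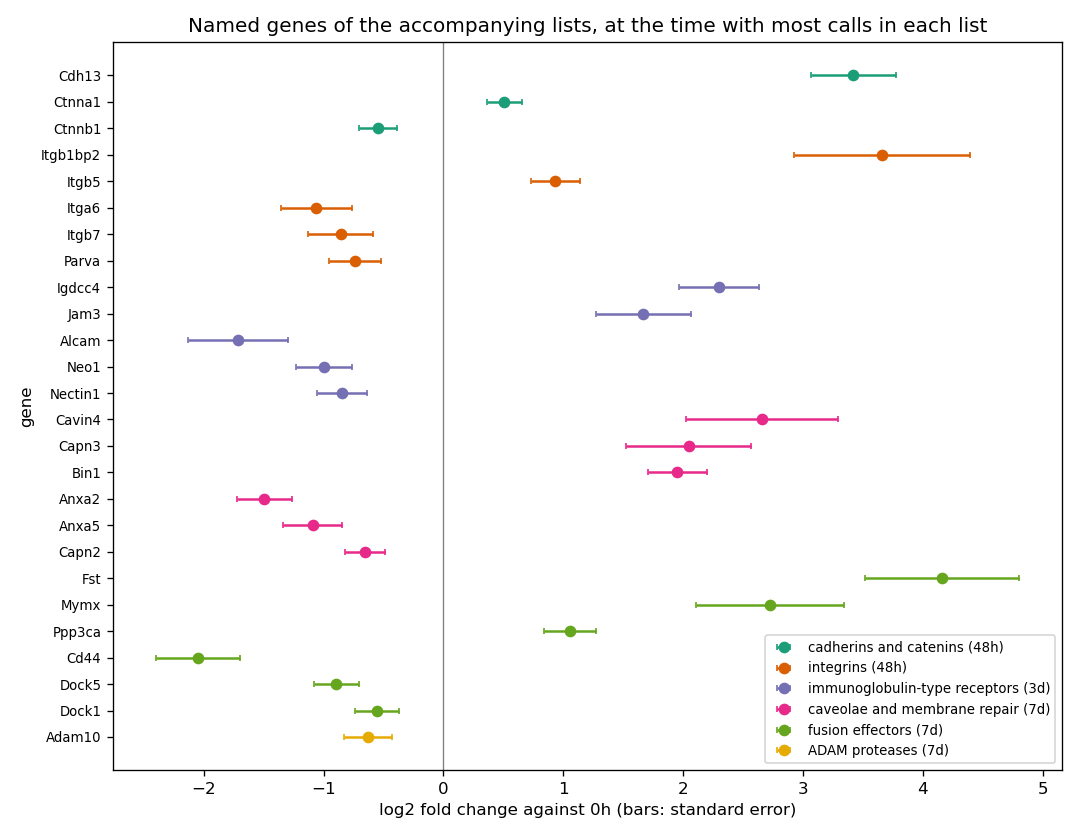
Log2 fold change against 0h, with standard error bars, of the genes named from the 6 related lists. Genes are coloured by list and given at the time with most calls in that list (the earlier where times tied). Fst (4.16), Itgb1bp2 (3.66) and Cdh13 (3.42) lie farthest to the right and Cd44 (−2.05) farthest to the left.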

How the data were processed

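RNA of 30 samples was measured on 3 chip designs. The deposited values are probe set intensity on a linear scale, as their range shows, and MAS5 is the tool named in the submitters' processing notes. Biotinylated cRNA was made by the Affymetrix protocol, per the labels. The software version, any scaling target and the genome build are not given in the sources used here. Mean signal per array lay between 1946 and 3009. With 3 arrays per time on each chip, their number limits the precision.

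Samples were grouped by the culture and time in their titles. The 25th percentile of a chip was added to its signals before log2. Probe sets with at least 3 of 30 arrays above the chip median were tested per chip with limma 3.58.1 (R 4.3.3; lmFit, eBayes, two-sided), and p-values were adjusted by Benjamini-Hochberg over the 24307 probe sets of the 3 chips. Time and culture were the terms, since the cultures recur at every time in the titles. As a check, deviations of same-culture arrays from the time mean had a median correlation across probe sets of 0.44, 0.232 and 0.0877 on Av2, Bv2 and Cv2. Of 135 same-culture pairs on each chip, 125, 100 and 61 were over 0.1 in that order. Arrays of unlike cultures gave −0.199, −0.0846 and −0.0359. Deviations cancel within each time, so these values are not a separate check. Early and late phases were compared between cultures as an interaction. The fit was tested on simulated data.

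Gene names came from GEO's platform annotation, and 19865 tested probe sets had 1 symbol. The leading probe set of a gene was tested, unmarked where possible, from Av2 before Bv2 before Cv2, and had the highest mean signal. Every member was described. From each related list up to 3 highest and 3 lowest passing genes were named, at the time with most calls (the earlier where times tied). For each member the genes with the highest Pearson r were named. The members and lists were chosen with earlier results of these data known. Alternatives were no block, scan session as the block, an offset of 16 or of the chip median, no filter, quantile normalization, the 6 arrays of the compared times alone, and leaving out each culture or the 1999 arrays of chosen times. Promoters came from RefSeq (GRCm38.p6).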

Additional observations from a re-analysis of the deposited data

Results flagged for a closer look

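Among the 15 tested member probe sets, a second Ncam1 probe set passed the test of the early to late difference between cultures, as did 1.79% of all probe sets. Its mean log2 signal at 3d, 4d and 7d minus that at 0h, 6h and 12h was −1.02 in 1999, 0.82 in P6 and 0.15 in P10 (interaction adjusted p = 0.0403 in limma). All late 1999 arrays lay below all early ones, and all late P6 arrays lay above all early ones, with 3 arrays in each phase. Such a separation was 1 of the rules by which probe sets were flagged here. The share of all probe sets that separate in this way was not recorded. The difference between 1999 and P6 alone was not tested. Times within a phase stand in as samples of a culture in the interaction test, so its p measures the spread between times. The adjusted p was 0.0541 with an offset of 16 and 0.222 without the 1999 arrays of 3d and 4d. The leading Ncam1 probe set had an adjusted p of 0.0508 in the same test.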

How the results depend on the processing

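Of 72 results (8 genes at 9 times), 40 were called, and none changed direction as a call. All 40 calls held with an offset of 16, with an offset at the chip median and after quantile normalization, and 39 held with no filter, where Dysf at 48h had an adjusted p of 0.051. With scan session as the block, 35 held and 4 were added (Itga7 at 6h, Mymk at 12h, Dysf at 18h and Vcam1 at 36h). The 5 lost were Cav3 at 3d and 4d and Dysf at 3d, 4d and 7d. The number of genes called at 6h was then 2 in place of 1, as it was without the 1999 arrays of 3d and 4d, an alternative chosen after seeing the data. Without the replicate block 20 calls held. The count was 0 at 6h, 1 at 12h, 2 at 18h, 24h, 36h, 48h and 3d, and 3 at 4d, and 1 gene passed the joint test. With the compared times alone 22 held, and the count was 0 at 6h and 12h, 3 at 48h, and 2 at 3d and 4d.

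Leaving out 1999, P6 or P10, 36, 30 and 27 of the calls held, and 25 held in all 3 cases. The count then ranged from 0 to 1 at 6h, was 1 at 12h, and ranged from 2 to 5 at 18h, 3 to 5 at 24h and 36h, 4 to 5 at 48h, 4 to 6 at 3d and 4d, and 2 to 4 in the joint test. It was 6 at 7d each time. Without the 1999 arrays of 36h and 48h, also chosen after seeing the data, Cav3 and Dysf at 48h did not pass (adjusted p = 0.0632 and 0.0883). Of the 26 results for named list genes, 11 held without the block and 10 without P6. Fewer samples or terms enter these fits, and the cause of each lost call was not tested. Signals near the value added, as for Adam12, limit what could be measured.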
